A study of Mus musculus with 6 samples.

Results

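The genes described here form a signalling unit of microglia and other myeloid cells. Its 9 members were chosen by gene name, as every non-control probe that the array files assign to Clec7a, Trem2, Tyrobp, Fcer1g, Syk, Blnk, Plcg2, Card9 or Inpp5d. The rule uses names alone, and the set was proposed with earlier results of these data known. Those names took 14 of the 56605 probes and 9 of the 37008 gene names on the array. The data are single-colour arrays of brainstem and cerebellum RNA, 1 for each of 3 MSA transgenic and 3 wild-type samples. The transgenic mice carry the genotype label MSA Transgenic and the controls the label wild type. Both genotypes were 16 weeks old, received no labelled treatment and shared 1 mixed strain background of C57BL/6, 129 and C3H. The transgene, its promoter, the cells that express it, the number of founder lines, the sex and any pooling of animals are not given in the sources used here, and the labels do not say that the samples are separate animals, so each p-value sets a difference against sample-to-sample spread that may be technical.

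Clec7a encodes Dectin-1, a C-type lectin receptor of phagocytes that recognises beta-glucans and carries its own short tyrosine activation motif. Trem2 encodes a lipid-sensing receptor of microglia that has no signalling tail and relies on the adaptor DAP12, encoded by Tyrobp. Tyrobp and Fcer1g encode small membrane adaptors whose immunoreceptor tyrosine-based activation motif (ITAM) becomes phosphorylated by Src family kinases and then recruits the kinase Syk. Syk acts through scaffolds such as Blnk on phospholipase C gamma 2 (Plcg2) and through Card9 on NF-kappaB, while the lipid phosphatase SHIP-1, encoded by Inpp5d, dampens these signals. Both receptors are known as markers of microglia near pathology in the mouse brain.

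Most member probes lie within single stretches of the genome, but 4 cross a splice junction, as their mm9 coordinates span more than the length of the probe. Of these 4, a Clec7a and a Tyrobp probe are shown because they give opposite pictures of detection. The Tyrobp probe, at chr7:31200651-31202378 on the plus strand, read the gene far above background. Its capitals mark a stretch that starts with a tyrosine codon and ends with a leucine codon at the spacing those residues have in an ITAM. The Clec7a probe, at chr6:129420986-129422630 on the minus strand, was at background on every array.
Tyrobp: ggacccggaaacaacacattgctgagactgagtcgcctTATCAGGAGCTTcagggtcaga
Clec7a: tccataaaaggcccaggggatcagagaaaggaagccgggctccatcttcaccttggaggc

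Markers of the labelled tissue were present. All 9 listed cerebellar and all 8 listed brainstem genes were well above background on all 6 arrays, against 3 of 6 forebrain genes. The tissue markers also differed in level between genotypes, although limma called none of them (unadjusted p under 0.05 for 0 cerebellar, 0 brainstem and 1 of the 3 forebrain genes). Of the cerebellar genes 8 of 9 were lower in transgenic samples, 4 of them with separated groups (7.5% of all genes), with a median log2 difference of -0.23. Their summed signal, in multiples of the array's 75th percentile, was 414 to 448 in transgenic and 486 to 511 in wild-type samples, without overlap. Of the brainstem genes 5 of 8 were lower (median -0.26), with sums of 7.57 to 10.5 in transgenic and 8.57 to 12 in wild-type samples. The forebrain sums were 0.953 to 1.12 in transgenic and 0.808 to 0.919 in wild-type samples, also without overlap. The part of the dissected tissue's make-up in the members' differences was not tested. Slide 1 held wild-type replicate 1 and slide 2 held the remaining 5 arrays. Across probes the slide 1 array correlated with the others at 0.979 to 0.984, and pairs of slide 2 arrays at 0.992 to 0.997. Its 75th percentile of signal was 406 intensity units, against 535 to 609 on the others. Results are therefore also given within slide 2, which holds 3 transgenic and 2 wild-type arrays.

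Clec7a rose about 10-fold in the transgenic samples, and the 7 other members that could be tested were at 1.30 to 1.91 times their wild-type levels without passing the test. Levels are given as the log2 of the signal relative to the array's 75th percentile, so 0 is that percentile, and cannot be compared between genes. Of the 9 members, 8 had a probe well above background on all 6 arrays and entered the test across 24932 genes. On all 8 the 3 transgenic arrays lay above the 3 wild-type arrays. Such a separation was found in 7.4% of all genes. In limma with Benjamini-Hochberg adjustment over all genes, 1 of the 8 had an adjusted p under 0.05 and was higher, a call made for 0.0441% of all genes (0.0361% higher and 0.00802% lower). Probe by probe, 8 of the 14 member probes were tested, 1 of them was called (0.0286% of all probes) and all 8 had separated, higher transgenic values (6.68% of all probes). The median log2 difference of the 8 was 0.71, against 0.00 over all genes tested. In whole tissue, more cells that express a gene and more RNA per cell cannot be told apart.

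**Figure D1:**
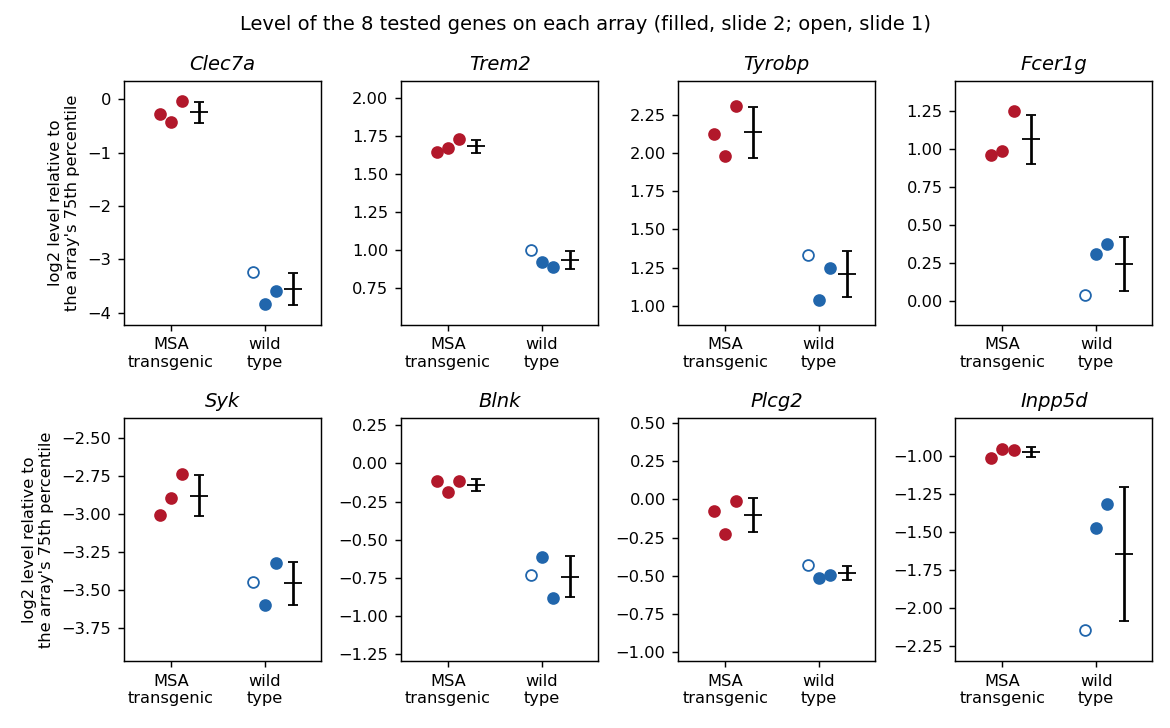
Level of the 8 tested genes on each array, as log2 of the signal relative to the array's 75th percentile, with 1 panel and 1 vertical scale per gene. Red points are MSA transgenic and blue points wild-type samples, the open point is the array on slide 1, and black bars give mean and SD (n = 3 each). In every panel the 3 transgenic points lie above the 3 wild-type points, by far the most for Clec7a.

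Of the receptors, Clec7a had a signal of 502, 441 and 587 intensity units in transgenic replicates 1, 2 and 3, against 42.8, 39.1 and 44.1 units in wild-type replicates 1, 2 and 3. After scaling its log2 levels were -0.28, -0.43 and -0.04 in transgenic samples, against -3.24, -3.85 and -3.60 in wild-type samples. Every transgenic sample was thus far above every wild-type sample, and the wild-type signal, though dim, was well above background, where the lowest such signals were 9.14 to 10.6 units per array. The log2 difference was 3.32 ± 0.19 (SE, 95% interval 2.86 to 3.77, n = 3 per genotype), a 9.96-fold rise (limma adjusted p = 0.0159), the fourth-smallest p of all genes. With normexp background correction, which adds an offset of 50 units that shrinks differences of dim genes, the log2 difference was 2.31 and the call stood (adjusted p = 0.00275). Within slide 2 it was 3.48 (adjusted p = 0.0175 with slide as a block).

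The call for Clec7a needed nearly all samples. It was lost without transgenic replicate 1, 2 or 3 (limma adjusted p = 0.127, 0.112 and 0.120) and without wild-type replicate 2 or 3 (0.0618 and 0.134), although the log2 difference stayed between 3.17 and 3.48. Without wild-type replicate 1 the gene was called (0.0221).

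The reading of Clec7a depended on the probe. The probe behind these values lies at chr6:129411739-129411798 on the minus strand (mm9). The second Clec7a probe, whose sequence is printed above, had 10.6, 9.77 and 11.05 units in transgenic samples, against 8.22, 5.40 and 12.6 units in wild-type samples. All 6 spots were below the call for background, the genotypes overlapped, and no fold is given for it.

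Trem2 had log2 levels of 1.64, 1.67 and 1.73 in transgenic samples, against 1.001, 0.92 and 0.89 in wild-type samples. After Clec7a this was the largest difference of the members in relation to its SE, with a mean of 1.68 ± 0.04 in transgenic and 0.94 ± 0.06 in wild-type samples (SD, n = 3 each). The log2 difference was 0.75 ± 0.08 (SE), or 1.68 times the wild-type level, and did not pass over all genes (limma adjusted p = 0.0774). It passed with normexp (0.72, adjusted p = 0.0256), with a variance model that follows intensity (adjusted p = 0.0303) and with array weights (0.0138). In the other 15 of 18 alternatives, each sample left out among them, it did not pass. The highest limma adjusted p there was 0.429, without transgenic replicate 3. The single Trem2 probe lies at chr17:48491537-48491596 on the plus strand (mm9).

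The adaptor Tyrobp, partner of Trem2, had log2 levels of 2.12, 1.98 and 2.31 in transgenic samples, against 1.33, 1.04 and 1.25 in wild-type samples. It had the second-largest difference of the members, 0.93 ± 0.13 (SE, 95% interval 0.62 to 1.25), or 1.91 times the wild-type level (limma adjusted p = 0.151). Array weights alone among the alternatives brought it past the threshold (adjusted p = 0.0388).

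Fcer1g, the adaptor shared by Fc receptors and several C-type lectins, had log2 levels of 0.96, 0.98 and 1.25 in transgenic samples, against 0.04, 0.31 and 0.38 in wild-type samples. The groups did not overlap, and the lowest value was that of the wild-type array on slide 1. The log2 difference was 0.82 ± 0.13 (SE, limma adjusted p = 0.211), or 0.72 within slide 2. The Fcer1g probe lies at chr1:173159794-173159853 on the minus strand (mm9).

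Syk, the kinase that docks on phosphorylated ITAMs, was dim, with log2 levels of -3.01, -2.90 and -2.74 in transgenic samples, against -3.45, -3.60 and -3.32 in wild-type samples. The difference was 0.58 ± 0.12 (SE, limma adjusted p = 0.335) and shrank to 0.20 with normexp. The remaining 3 Syk probes gave nothing to compare. They had at most 11.5 units on any array, and only 1 spot of them, on transgenic replicate 2, was well above background.

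The scaffold Blnk, which links Syk to phospholipase C, had log2 levels of -0.12, -0.19 and -0.12 in transgenic samples, against -0.74, -0.61 and -0.88 in wild-type samples. Its transgenic values lay within an SD of 0.04, and the difference was 0.60 ± 0.10 (SE, limma adjusted p = 0.211). Plcg2, which makes the second messengers that release calcium, had the smallest difference of the tested members. Its log2 levels were -0.07, -0.23 and -0.01 in transgenic samples, against -0.43, -0.52 and -0.50 in wild-type samples, a difference of 0.38 ± 0.09 (SE, 95% interval 0.15 to 0.60, limma adjusted p = 0.506).

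Inpp5d, the inhibitory phosphatase of the set, had log2 levels of -1.02, -0.96 and -0.96 in transgenic samples, against -2.15, -1.48 and -1.32 in wild-type samples. The transgenic samples were nearly alike and the wild-type array of slide 1 stood well below the other wild-type arrays. The difference was 0.67 ± 0.22 (SE, limma adjusted p = 0.763) over all arrays and 0.42 within slide 2, which leaves that array out.

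Card9, the adaptor between Syk and NF-kappaB, could not be measured. Its first probe had 11.3, 9.10 and 9.92 units in transgenic samples, against 3.26, 2.62 and 6.40 units in wild-type samples, and its second 7.48, 6.76 and 7.34 units, against 2.33, 3.91 and 5.16 units. On both probes the transgenic values were the higher ones, but only 1 of these 12 spots, that of the first probe on transgenic replicate 1, was well above background, so no fold is given.

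**Figure D2:**
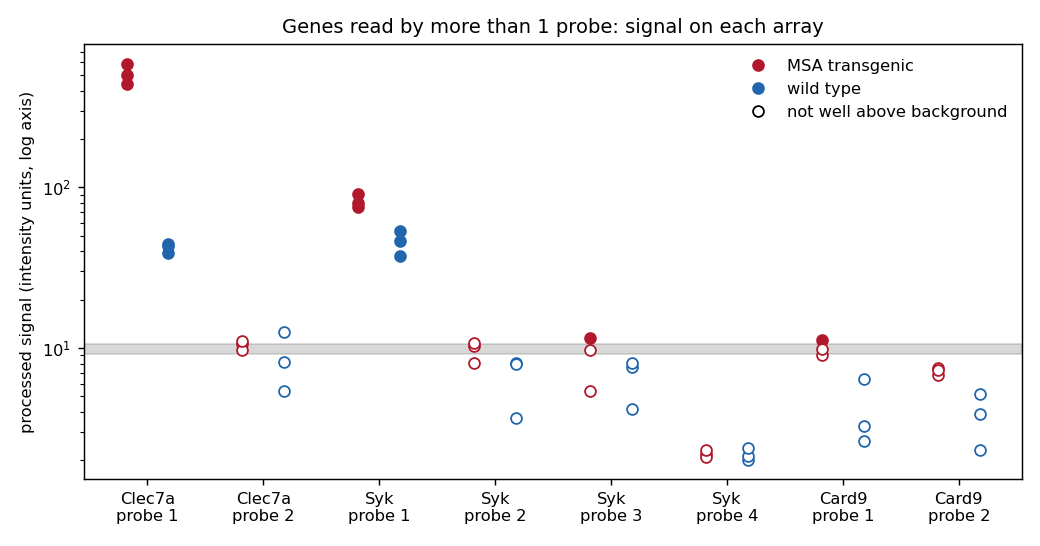
Signal of every probe of the 3 members read by more than 1 probe, in intensity units on a log axis, with MSA transgenic samples in red left of wild-type samples in blue. Open points were not well above background, and the grey band spans the lowest signals well above background on the 6 arrays (9.14 to 10.6 units). The first Clec7a and the first Syk probe stand clear of the band on all arrays, and the other 6 probes lie around or under it.

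The difference of Clec7a was larger than that of each other member. The log2 gap between Clec7a and each other member was taken within each array, and the gap in transgenic minus that in wild-type samples was 2.38 for Tyrobp, 2.49 for Fcer1g, 2.57 for Trem2, 2.65 for Inpp5d, 2.71 for Blnk, 2.74 for Syk and 2.94 for Plcg2. In all 7 comparisons the transgenic and wild-type gaps did not overlap. The two-sided exact permutation test over the 6 samples gave p = 0.10 for each, which is the smallest p that 3 against 3 samples allow, and the adjusted value over the 7 was also 0.10, so the design could not place this difference under 0.05. With normexp the same differences were 1.41 for Tyrobp to 2.11 for Syk.

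**Figure D3:**
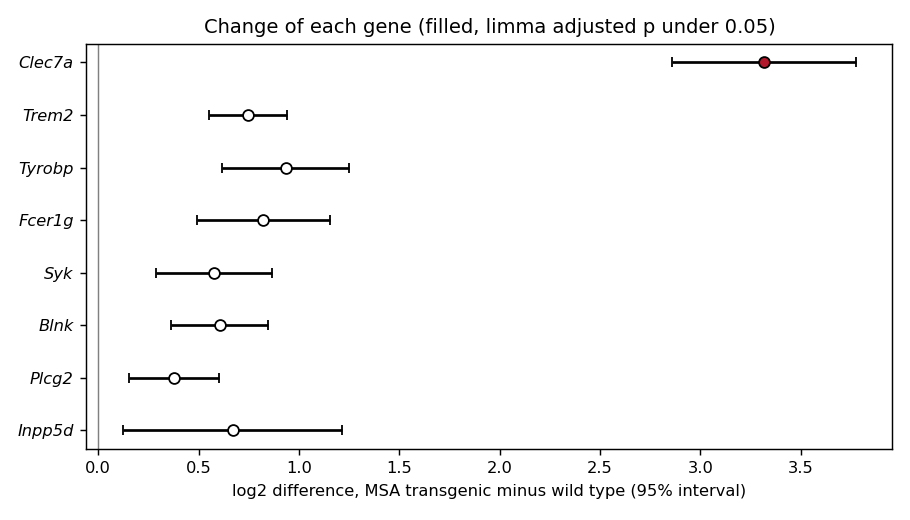
Log2 difference of each tested member, MSA transgenic minus wild type, with its 95% interval from limma (n = 3 per genotype). The filled point, Clec7a, has an adjusted p under 0.05, and all 8 intervals lie above 0 before any adjustment for the number of genes.

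Receptors listed as signalling through Tyrobp, Fcer1g or a short motif of their own were mostly higher, with a median below that of the members. The coupling of each listed receptor was not checked. Of 12 tested genes of this list, 11 were higher, 6 of them with separated groups (7.4% of all genes), and the median log2 difference was 0.38, against 0.00 over all genes. None was called, and 4 had an unadjusted limma p under 0.05. These were Cd300c2, an activating receptor of myeloid cells (log2 difference 0.67 ± 0.12, SE), Oscar, a collagen receptor (0.50 ± 0.12), Clec5a, which pairs with DAP12 (0.36 ± 0.11), and Clec4n, which encodes Dectin-2 (0.46 ± 0.18). With normexp the differences of Oscar, Clec5a and Clec4n were 0.25, 0.16 and 0.08 and the list's median was 0.12.

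Among 16 tested genes listed as adaptors and scaffolds, 12 were higher and 6 had separated groups, with a median of 0.12 and no call. The lowest gene of this list, at -0.29, encodes a kinase. Lat2, a scaffold phosphorylated downstream of Syk, had 0.80 ± 0.10 (SE), Fyb, an adaptor of integrin activation, 0.63 ± 0.12, Sh3bp2, an adaptor that binds Syk and Plcg2, 0.52 ± 0.15, and Hcst, which encodes DAP10 and neighbours Tyrobp in the RefSeq gene table, 0.50 ± 0.15. With normexp the values were 0.18 for Lat2, 0.32 for Fyb, 0.39 for Sh3bp2 and 0.18 for Hcst.

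Of 8 tested genes listed as kinases that phosphorylate ITAMs or act with Syk, 6 were higher, with a median of 0.08. The difference was 0.18 ± 0.08 (SE) for Src, 0.12 ± 0.11 for Btk, a kinase of B cells and myeloid cells, and -0.24 ± 0.12 for Yes1. Btk was at -0.08 with normexp. Of 14 tested exchange factors, GTPases and lipid kinases, 13 were well above background on all arrays, and Pik3cg entered the test through the transgenic arrays alone. Of the 13, 8 were higher, 4 were separated upward and 2 downward, and the median was 0.08. With normexp 6 of the 13 were higher and the median was -0.015, so the sign of the list's median turned. The median over all genes tested was -0.047 with normexp, against 0.00 without it. The differences were 0.74 ± 0.12 for Rac2, a GTPase of blood cells, 0.67 ± 0.10 for Arpc1b, a subunit of the actin-branching complex, 0.59 ± 0.12 for the exchange factor Vav1 and 0.55 ± 0.13 for Was, an actin regulator of blood cells. With normexp Rac2 was at 0.29 and Was at 0.22, while Arpc1b was at 0.68 and Vav1 at 0.47.

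The genes listed for the branches downstream of Plcg2 and Card9 had medians near that of all genes in whole-tissue RNA. Changes confined to myeloid cells were not tested, and RNA levels do not measure signalling through these branches. Of 11 genes of the phospholipase C branch, 3 were higher, none was separated and the median was -0.05. Nfatc3, Nfatc1 and Plcg1 had -0.14 ± 0.11, -0.13 ± 0.14 and -0.06 ± 0.08 (SE), and the calcium sensor gene Stim1 had 0.15 ± 0.14. Nfatc1 was at 0.01 within slide 2. Of 13 genes of the Card9 branch and NF-kappaB, 7 were higher and 1 was separated, with a median of 0.01. That gene was Nfkb2, an NF-kappaB subunit (0.48 ± 0.18, and 0.31 within slide 2). Malt1, which acts with Card9 and Bcl10, had 0.12 ± 0.10, and Rel and the kinase gene Map3k7 had -0.09 ± 0.08 and -0.09 ± 0.10.

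Inhibitory receptors and phosphatases were split, with 12 of 25 higher and a median of -0.02. Lilrb4a, an inhibitory receptor of myeloid cells, stood apart with a log2 difference of 2.09 ± 0.20 (SE) and the smallest p of the list, and missed the threshold (limma adjusted p = 0.0618; 0.94 with normexp). The gene has a close paralogue, Lilr4b, and whether the probe tells them apart was not checked. Ptpn6, which encodes the phosphatase SHP-1, had 0.59 ± 0.15 (0.26 with normexp), Lair1, a collagen receptor, 0.47 ± 0.12, and Cd33, a sialic acid receptor of microglia, 0.35 ± 0.13, or -0.04 with normexp.

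Of 10 genes for TREM2 ligands, sheddases and regulators, 7 were higher and 5 were separated, with a median of 0.12. The membrane protein genes Ms4a6d, Ms4a6c and Ms4a7 had 1.14 ± 0.17, 0.89 ± 0.23 and 0.56 ± 0.17 (SE), and 0.36, 0.15 and 0.26 with normexp. Csf1, a growth factor for microglia, had 0.20 ± 0.09. In all 8 lists and the 2 gene clusters below, 115 genes other than members were tested and limma called none over all genes. Of the 114 that were well above background on all arrays, 24 were higher and 1 was lower at an unadjusted p under 0.05, or 21.1% and 0.877%. The shares among all 23020 genes so detected were 2.78% and 2.69%. Separated groups were found upward for 28 and downward for 5 of the 114, or 24.6% and 4.39%, against 7.07% and 7.79% of the 23020. With normexp 57 of the 114 were higher and 57 lower. Over all 24932 genes tested, 9081 were higher with normexp and the median log2 difference was -0.047.

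**Figure D4:**
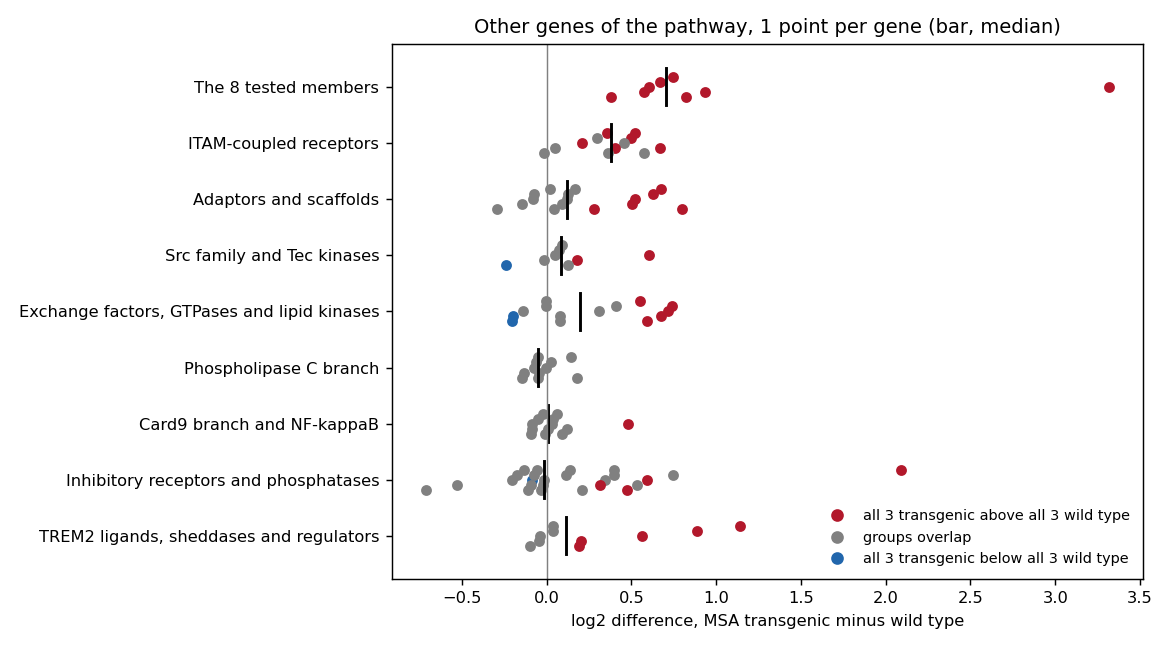
Log2 difference, MSA transgenic minus wild type, for the 8 tested members and the tested genes of 8 pathway lists, with 1 point per gene and a bar at each list's median. Red marks genes whose 3 transgenic samples all lie above the wild-type samples and blue the reverse. Medians fall between -0.05 and 0.38 in the lists, against 0.71 for the members (the bar at 0.20 for exchange factors includes Pik3cg), and Lilrb4a at 2.09 is the only listed gene beyond 1.14.

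Genes beside Clec7a and Trem2 had mixed directions and passed no test. In the C-type lectin cluster on chromosome 6, 6 of 14 listed genes were tested. Apart from Clec7a those with the smallest p were Clec1b, a platelet receptor (0.58 ± 0.34, SE, and 0.02 with normexp), Tmem52b (-0.48 ± 0.29) and the inhibitory receptor gene Clec12a (-0.53 ± 0.42, and -0.16 within slide 2). All 3 had overlapping genotypes and a limma adjusted p = 0.817. In the Trem cluster on chromosome 17, 7 of 10 genes were tested. Treml1 had 0.30 ± 0.15 (SE), Nfya 0.22 ± 0.13 and Apobec2 -0.39 ± 0.17, also at an adjusted p = 0.817. Treml1 was at -0.0048 with normexp.

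Promoter sequences from RefSeq (GRCm38.p6, 250 bases before to 50 after each start) were given for 8 of the 9 members, Tyrobp being named only. Each was searched on both strands for GAGGAAGT, a site of the PU.1 type that overlaps the shorter ETS core GGAA, for the AP-1 site TGANTCA, for the E-box CACGTG and for the NF-kappaB site of the immunoglobulin kappa enhancer. GAGGAAGT was found in the promoter of Inpp5d alone among the members, and in 3.2% of all 32851 promoters. TGANTCA was found in that of Trem2 alone (7.81% of all), CACGTG in that of Plcg2 alone (7.15%) and the NF-kappaB site in none (0.155%). GGAA was found for all 8, as in 96.0% of all promoters. The promoter of Clec7a, whose gene rose, is shown with those of Trem2 and Inpp5d, in which capitals mark the TGANTCA and GAGGAAGT matches. They lie at chr6:129472730-129473029 on the minus strand, chr17:48346151-48346450 on the plus strand and chr1:87620062-87620361 on the plus strand.
Clec7a: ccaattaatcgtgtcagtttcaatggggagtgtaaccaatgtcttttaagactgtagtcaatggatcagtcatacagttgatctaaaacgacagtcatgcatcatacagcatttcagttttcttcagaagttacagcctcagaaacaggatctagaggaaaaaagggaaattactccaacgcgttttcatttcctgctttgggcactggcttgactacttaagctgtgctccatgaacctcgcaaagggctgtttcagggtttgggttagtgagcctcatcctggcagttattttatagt
Trem2: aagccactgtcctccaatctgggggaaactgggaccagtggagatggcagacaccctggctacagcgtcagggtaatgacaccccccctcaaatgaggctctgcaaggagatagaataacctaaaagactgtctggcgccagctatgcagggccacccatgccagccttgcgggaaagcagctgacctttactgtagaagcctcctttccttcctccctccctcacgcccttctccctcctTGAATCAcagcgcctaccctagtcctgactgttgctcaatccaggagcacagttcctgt
Inpp5d: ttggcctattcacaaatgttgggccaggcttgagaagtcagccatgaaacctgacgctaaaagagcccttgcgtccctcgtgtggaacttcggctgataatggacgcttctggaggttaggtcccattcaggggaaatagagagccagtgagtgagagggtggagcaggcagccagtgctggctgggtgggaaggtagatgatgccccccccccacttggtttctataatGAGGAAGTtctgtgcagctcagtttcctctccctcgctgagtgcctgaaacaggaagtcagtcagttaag

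Over the 6 arrays, genes with the most similar course were sought by the mean absolute difference of log2 levels after each gene was centred on its own mean, among 15351 other genes well above background on all arrays. Closest to Clec7a were Kdr, a receptor for vascular endothelial growth factor (mean absolute difference 0.29), the calcium-binding protein gene Cabp2 (0.31), the prion protein gene Prnp (0.38), the chemokine gene Cxcl10 (0.52) and Lilrb4a (0.61). Their log2 differences between genotypes were 3.35, 2.70, 2.56, 2.38 and 2.09, all under the 3.32 of Clec7a except that of Kdr. That of Prnp was 1.11 with the mean of its tested probes, and that of Cxcl10 was 1.34 with normexp. Closest to Trem2 were the stress-induced transcription factor gene Atf3 (0.03), Gstm5 (0.03), Ly86, a myeloid surface protein gene (0.05), the interferon-induced gene Gbp3 (0.05) and Myo1f, a myosin of leukocytes (0.06). Closest to Tyrobp were the complement genes C1qc, C1qa and C1qb (0.05, 0.06 and 0.07), Cd14, a co-receptor for lipopolysaccharide (0.06), and Lcn2 (0.08). With normexp Atf3 was at 0.29, Myo1f at 0.44 and Lcn2 at 0.29, against 0.75, 0.85 and 0.79 without it.

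Markers of the cells that could carry these genes, or of blood cells in the tissue, were not called in limma. Over all lists of cell types 53 tested markers were well above background on all arrays, and 11 of them were higher and 2 lower at an unadjusted p under 0.05, or 20.8% and 3.77%, against 2.78% and 2.69% of the 23020 genes so detected. A further 6 passed the filter through the transgenic arrays alone and are left out of the counts and medians that follow. Summed signals are in multiples of the array's 75th percentile. A sum follows the brightest probes of its list, so it is also given without the brightest pair where that pair made up most of it and other genes remain, a choice made after the data were seen.

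Of the 14 microglial genes, all detected on all arrays, 11 were higher, with a median log2 difference of 0.28, or 0.18 with normexp. Their summed signal was 248 to 282 in transgenic and 164 to 308 in wild-type samples, of which Siglech and Itgam, both surface proteins of microglia, gave 88.9%. Itgam was itself lower in transgenic samples, with separated groups (log2 difference -0.32 ± 0.12, SE), and Siglech overlapped between genotypes (0.36 ± 0.47). Without that pair the sum was 30.6 to 33.4 in transgenic and 24.2 to 24.6 in wild-type samples. The full sums thus overlapped and the remaining ones did not. Of the border macrophage markers 9 of 9 were higher, with a median of 0.34, but 0.13 and 8 of 9 with normexp. The summed signal of the border macrophage list was 2.97 to 3.23 in transgenic and 2.41 to 2.89 in wild-type samples, without overlap.

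Of 6 neutrophil markers all were higher, with a median of 0.59, or 0.29 with normexp and 0.32 within slide 2. The summed signal of the neutrophil list was 79.9 to 113 in transgenic and 64.7 to 114 in wild-type samples, of which Csf3r, a growth factor receptor of granulocytes, gave 98.3%. Without Csf3r and S100a9 the sum was 1.13 to 1.32 in transgenic and 0.574 to 1.06 in wild-type samples, without overlap. The chemokine receptor gene Cxcr2 was at background throughout. Of the T and NK cell markers only 3 were detected on all arrays. These 3 were higher with a median of 0.43, but 2 of 3 and 0.08 within slide 2. The summed signal of the T and NK list was 54.3 to 56.5 in transgenic and 20.2 to 59 in wild-type samples, of which Klrb1c gave 93.8%. Without Klrb1c and Cd4 it was 0.986 to 1.14 in transgenic and 0.5 to 0.98 in wild-type samples. Cd3g, Cd8a and Ncr1 were at background throughout.

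Of 6 monocyte markers 2 were higher (median -0.04), with a summed signal of 18.5 to 21.4 in transgenic and 17.9 to 22 in wild-type samples. Without Ly6c2 and Fn1, which gave 93.6% of it, the sum was 1.16 to 1.88 in transgenic and 0.903 to 1.15 in wild-type samples. Of 5 B cell markers 1 was higher (median -0.20), with a summed signal of 1.15 to 1.5 in transgenic and 1.51 to 1.71 in wild-type samples and Cd79a at background. Without Cd22 and Ms4a1, which gave 86.5% of it, the sum was 0.184 to 0.195 in transgenic and 0.176 to 0.227 in wild-type samples. Dendritic cell markers had 1 of 3 higher, with sums of 3.63 to 3.93 in transgenic and 3.72 to 4.57 in wild-type samples and Xcr1 and Siglecg at background. Without Flt3 and Zbtb46 the remaining gene had 0.0832 to 0.109 in transgenic and 0.0669 to 0.108 in wild-type samples. Mast cell and basophil markers had 1 of 2 higher, with sums of 1.13 to 1.52 in transgenic and 1.23 to 1.32 in wild-type samples and Cpa3, Mcpt4, Ms4a2 and Mcpt8 at background. Platelet markers had 4 of 5 higher, or 2 of 5 with normexp, with sums of 0.41 to 0.62 in transgenic and 0.41 to 0.44 in wild-type samples. Without Gp1bb and Ppbp the sum was 0.159 to 0.23 in transgenic and 0.122 to 0.178 in wild-type samples. The part of cell numbers in the members' differences was not tested.

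Across 18 alternatives in processing, blocking and samples, all 8 tested members kept a positive difference, but some alternatives could not move it. Filters, probe handling, the variance model and the block on the first title digit returned the reported differences. The slide block gave the differences found without wild-type replicate 1, and the authors' value table nearly repeated quantile normalization. The differences of Trem2 lay between 0.70 and 0.78, those of Tyrobp between 0.85 and 1.01, those of Fcer1g between 0.70 and 0.89, those of Blnk between 0.52 and 0.67 and those of Plcg2 between 0.33 and 0.44. The ranges were wider for Clec7a, Syk and Inpp5d, at 2.31 to 3.48, 0.20 to 0.64 and 0.42 to 0.83.

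**Figure D5:**
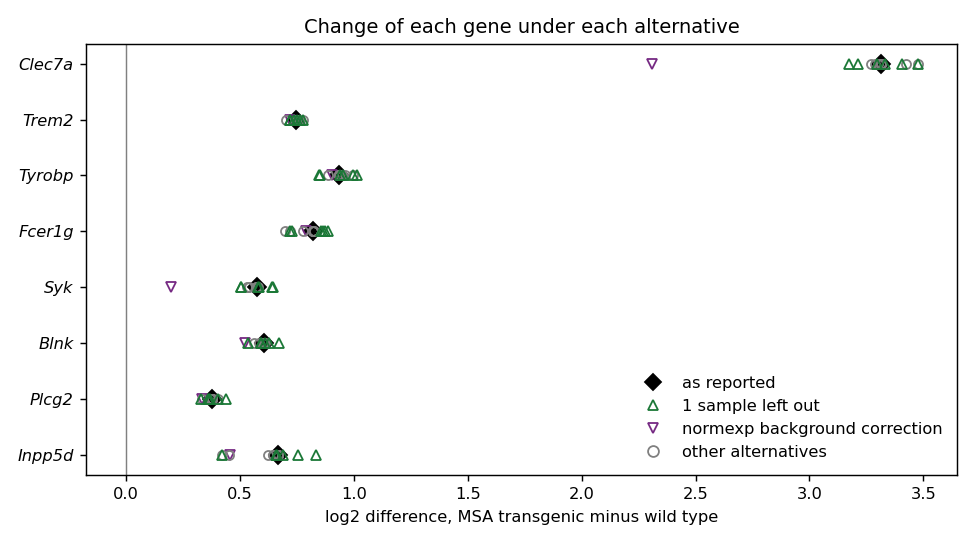
Log2 difference of each tested member, MSA transgenic minus wild type, as reported (diamond), with 1 sample left out (upward triangles), with normexp background correction (downward triangle) and under the other alternatives (circles). All values lie above 0, and the widest moves are those of Clec7a and Syk with normexp and of Inpp5d when a sample is left out.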

How the data were processed

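Per the file headers, Cy3 arrays were read with Agilent Feature Extraction 10.7.1.1 (9.5.1.1 per the submitters' processing notes) and annotated on mm9. The deposited intensity values are background-subtracted on a linear scale, with 0 or 1 flags of another kind for background, saturation and outliers, per the file headers. The authors' value table, also intensity, equalled a quantile normalization of the probe signals within 0.01 log2 for at least 99.9859% of values, with column median 59.9, and served as an alternative.

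Excluded were control spots and, on each array, 39 to 84 spots with an outlier flag. No spot was saturated. The quality result in the file headers was ExtractionEvaluate for transgenic replicates 1 and 2 and wild-type replicates 2 and 3. It was ExtractionInRange for the other arrays. Log2 signals of a probe's spots were averaged and each array's 75th percentile subtracted. Of 56605 probes, 32994 were named by accession, 10224 by symbol and 520 by synonym through the RefSeq gene table (GRCm38.p6, names only), and 12867 kept the files' name. A probe entered the test (38463 did) when every array of 1 genotype or both called it well above background, with the brightest per gene (24932 genes). Genotypes were compared with limma 3.58.1 (R 4.3.3) and genes called at an adjusted p under 0.05. On simulated data this recovered 57% of planted log2 differences of 1 and 82% of those of 2, with 5 false calls. The uncalled tested members had log2 differences of at most 0.93, so a missing call does not show that they were unchanged. Replicate numbers follow accession order and pair nothing.

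The members and lists were chosen with earlier results of these data known. Named genes are all members, up to 4 per pathway list with the smallest p, and the 5 nearest in course to Clec7a, Trem2 and Tyrobp (predicted genes left out), and up to 2 per marker list with the highest level, besides markers at background; Lilr4b is named as a paralogue only. One gene that this rule names is not reported here. The number of arrays limits the precision. The promoter motifs were chosen after the fit was seen. Alternatives covered background correction, scaling, filter, probes, blocks, variance model and each sample left out.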

Additional observations from a re-analysis of the deposited data

How the results depend on the processing

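In limma 11 genes (9 higher, 2 lower), 1 member (Clec7a), 1 member probe and 0 of 115 pathway genes (26 at an unadjusted p under 0.05) were called. The count over all genes was 29 (19 and 10) with normexp background correction, 27 with a variance model that follows intensity, 95 with array weights, 24 when the probes of a gene were averaged, 23 when detection was asked of all 6 arrays, 6 with no filter, and 7 with slide as a block. With 1 sample left out it lay between 0, without transgenic replicate 2 (1208 genes at an unadjusted p under 0.05), and 6, without wild-type replicate 1, and the counts of called members and member probes lay between 0 and 1. Members and member probes called were 2 with normexp and 2 with that variance model (Clec7a and Trem2), and 3 with array weights (these and Tyrobp). Of the pathway genes 1, Lilrb4a, was called with the array median as scale, with detection asked of all 6 arrays and with that variance model, and 4 with array weights. The sign of small, uncalled differences turned for Cd33 (-0.0401), Btk (-0.0763) and Treml1 (-0.0048) with normexp and for Nfya (-0.0764) and Nfatc1 (0.203) when probes were averaged. Nfatc1 also turned with slide as a block (0.0087), and with 1 sample left out it lay between -0.201 and 0.0087, the higher value without wild-type replicate 1. The cause was not tested. The larger change of Clec7a than of each other member kept its direction in all 16 alternatives run for it, some of which could not move it. Card9 was tested only with no filter (1.13, limma adjusted p = 0.587), on signals near background. Both genotypes carry the same replicate numbers, which pair nothing. The titles carry sample numbers that fall into 2 ranges by their first digit, and with that digit as a block 11 genes and 1 member were called, Clec7a at an adjusted p of 0.0262 and Trem2 at 0.133, against 0.0159 and 0.0774 without it. No paired analysis was possible because the labels do not tie single samples of the genotypes to each other. Signals under about 10 units are not well above background, which limits Card9 and the second probes of Clec7a and Syk.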
